A study of Mus musculus with 12 samples.

Results

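The Myc and Mxd network was followed here through 10 genes, Myc, Mycn, Mycl, Max, Mxd1, Mxd3, Mxd4, Mxi1, Mnt and Mlx, chosen by name. They are 10 of the 19031 genes named on an Illumina mouse array, whose probes are short DNA strands on beads and whose brightness reports how much of a transcript is present. They hold 17 of its 45135 probes. The RNA came from prostate stem cells of C57Bl/6 mice. It was taken from 3 cultures: cells of mouse 1 in an adherent monolayer, cells of mouse 2 in an adherent monolayer, and cells of mouse 1 grown as spheroids, which are balls of cells. The labels give no transgene, knockout or added agent for any culture, and no age of the animals. Each culture had 3 replicate arrays and 1 array of a pool of these replicates. Spheroids came from 1 mouse only. The labels do not say whether replicates were separate cultures, so the spread between them, on which the p-values rest, may be technical.

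Myc is a transcription factor of the basic helix-loop-helix leucine zipper family that pairs with Max, binds E-boxes and drives genes of ribosome assembly, metabolism and the cell cycle. Mxd proteins, Mxi1 and Mnt also pair with Max, bind the same sites and recruit Sin3 and histone deacetylases, and the network is often described as a switch between growth and differentiation. Mlx is a further partner, which pairs with Mxd1 and Mxd4 and with the glucose-sensing factors MondoA and ChREBP. In stratified epithelia, Myc is known from cycling basal cells and Mxd1 from cells that have begun terminal differentiation.

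The network differed most at Mxd1. Its brightest probe was 44.5-fold higher in spheroids than in the average of the adherent cultures, which placed it at rank 34 from the highest of 10112 tested genes. Myc was lower in spheroids, called against adherent mouse 2 (log2 difference -1.24) and past the adjusted p but under 2-fold against adherent mouse 1 (-0.72). Mxd4, Max and Mlx had higher spheroid values, each less than 2-fold at the probe that represents the gene, while Mycl separated the adherent cultures from each other. Values below are log2 of the background-corrected and quantile-normalized signal of a probe, on which 1 unit is a 2-fold difference. They compare a probe between cultures and not genes with each other.

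A probe was tested when some culture had it detected, at a detection p under 0.05, on each of its 3 replicate arrays. This held for 12 of the 17 probes and 7 of the 10 members, and for 18950 probes in all, while Mycn, Mxd3 and Mnt were not tested. Mxi1, probe ILMN_2428206 of Mxd1 and probe ILMN_2620510 of Mlx passed through their spheroid arrays alone. A difference was called at a limma p under 0.05, adjusted by Benjamini-Hochberg over all tested probes, with a fold of at least 2, and a gene took the value of its brightest tested probe. In spheroids against the adherent average 1 of the 7 tested members, Mxd1, was called higher and 0 were called lower in limma, where 23.9% of all probes were called. At the adjusted p alone 5 members were higher (Mycl, Max, Mxd1, Mxd4 and Mlx) and 1 lower (Myc), where 58.7% of all probes passed. Against adherent mouse 1 Mxd1 was the 1 member called (24.7% of all probes), and at the adjusted p alone Max, Mxd1, Mxd4 and Mlx were higher and Myc lower (53.6% of all probes). Against adherent mouse 2 Mxd1 was called higher and Myc lower (24.4% of all probes), and at the adjusted p alone Mycl, Max, Mxd1 and Mxd4 were higher and Myc lower (55.4% of all probes). These 3 comparisons share the spheroid arrays. Between the adherent cultures 0 of 7 members were called in limma (2.11% of all probes), and 1, Mycl, passed the adjusted p alone (10% of all probes). Members are counted here as genes, and the shares are over probes. With 1 probe per gene, 2684 of 10112 genes were called in spheroids against the adherent average, and 6439 passed the adjusted p alone. With only 7 tested members a single gene moves their share widely, so no excess or lack among the members is read from these counts. The difference of these shares was not tested.

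**Figure D1:**
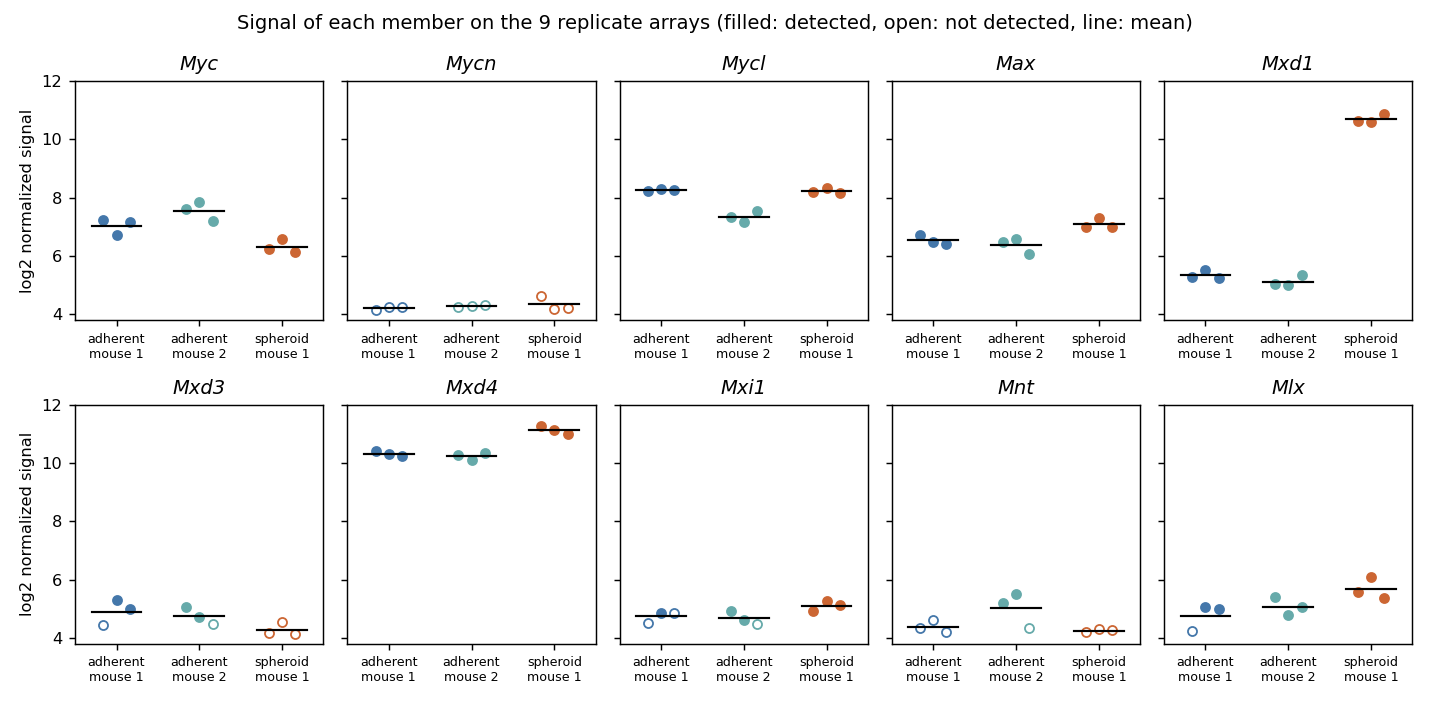
Log2 normalized signal of the brightest probe of each of the 10 members on the 9 replicate arrays, by culture. Filled points are detected, open points are not, and lines are means. Mxd1 stands between 10.60 and 10.89 on the spheroid arrays and between 5.0 and 5.53 on the adherent ones, and Mycn is undetected throughout.

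Between 43.1% and 49.1% of all probes were detected on each array. Relative to background, the 90th percentile of signal was 3.09 to 3.24 on spheroid replicate arrays and 3.82 to 4.72 on adherent arrays, a measure that moved with the comparison and whose part in the results was not tested. Adherent mouse 2 replicate 1 stood apart from its group: correlations across probes, which are not independent replicates, were 0.971 to 0.993 within that culture and 0.991 within adherent mouse 1. Its other arrays carry the same column name and are called arrays a and b. The basal markers Krt5, Krt14, Krt15, Itga6 and Trp63 were detected in all cultures, and of them Krt15 was called higher in spheroids (2.73) while Trp63 passed the adjusted p in limma alone (-0.56). The luminal marker Krt18 was called lower (-1.42), and Krt8 passed the adjusted p in limma alone (-0.96). Ncam1, from the neuroendocrine list, was called lower at its brightest probe (-2.17), while other tested probes gave -0.06 and -0.81 and were not called. Of 6 tested markers of squamous differentiation 5 were called higher in spheroids, where 23.9% of all probes were called. The remaining marker, Ivl, was lower and passed the adjusted p in limma alone (-0.56, with -0.95 on another probe). The summed signal of the 6 was 45666 to 46598 in spheroids against 4058 to 4650 in adherent mouse 1 and 5688 to 5974 in adherent mouse 2. The 4 tested proliferation markers (Mcm5, Cdk1, Top2a and Pcna) were called lower in spheroids, where 23.9% of all probes were called. Their summed signal was 687 to 759 against 7712 to 7906 in adherent mouse 1 and 6909 to 8156 in adherent mouse 2. Detection on all spheroid arrays held for 3 of the 4, and the other was tested through adherent arrays alone. Further tested probes gave -0.57 and -0.58 for Cdk1 and -0.26 for Top2a, not called, and -2.72 for Top2a, called. Of 9 fibroblast and smooth muscle markers 4 were tested. Vim and Acta2 were called lower, and Col1a2 (-0.05) and Des (-0.10) were not called. Vim and Des were tested through adherent arrays alone. The summed signal of the 4 was 1480 to 1543 in spheroids against 22348 to 25829 in adherent mouse 1 and 22589 to 28799.5 in adherent mouse 2. Col1a1, Col3a1, Pdgfra, Pdgfrb and Myh11 did not pass detection, nor did Ptprc and Adgre1 of leukocytes or Chga and Syp of neuroendocrine cells. The leukocyte marker Cd3e was tested through adherent mouse 2 alone and gave -0.49 (adjusted p 0.0196, limma), not called. Of 4 endothelial markers 3 were tested and 0 called. Tek gave -0.53 (adjusted p 0.0194, limma), Pecam1 -0.22, and Kdr -0.13 with 0.44 on another probe. Cd3e and Tek were undetected on all spheroid replicate arrays. In bulk RNA, fewer cells of a type and less RNA per cell cannot be told apart, and the part of these shifts in the values of the network was not tested.

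Promoter sequence is shown for Mxd1 and Mxd4, the antagonists of Myc that had the smallest adjusted p among the members in spheroids against the adherent average. Each line gives the 250 bases before the start site in the RefSeq table (GRCm38.p6), 5′ to 3′ on the gene's strand. Capitals mark, on either strand, the E-box CACGTG, to which Myc-Max and Mxd-Max pairs bind, and the GC box GGGCGG, a site of Sp-family factors. The Mxd1 stretch is chr6:86669160-86669409 on the minus strand and the Mxd4 stretch is chr5:34187711-34187960 on the minus strand.
Mxd1: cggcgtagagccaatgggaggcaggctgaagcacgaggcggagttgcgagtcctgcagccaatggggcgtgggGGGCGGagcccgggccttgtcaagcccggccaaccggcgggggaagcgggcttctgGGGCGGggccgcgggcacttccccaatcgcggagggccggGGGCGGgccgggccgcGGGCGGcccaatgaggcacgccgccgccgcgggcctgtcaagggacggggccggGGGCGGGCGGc
Mxd4: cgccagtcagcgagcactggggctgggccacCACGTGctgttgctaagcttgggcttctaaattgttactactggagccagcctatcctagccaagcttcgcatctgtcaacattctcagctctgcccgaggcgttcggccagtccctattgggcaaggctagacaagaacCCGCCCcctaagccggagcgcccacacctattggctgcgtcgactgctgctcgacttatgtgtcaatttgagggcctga
The Mxd1 window of 300 bases, which runs 50 bases past the start, held 6 GC boxes, of which the last pair overlap, and 0 matches to CACGTG. The Mxd4 window held 1 CACGTG at -219 and 1 GC box at -79 from the start. RefSeq windows were at hand for 9 members. CACGTG was found in 4 of them (Max at -3, Mxd4, Mnt at -123 and Mlx at -40) and in 7.15% of all 32851 windows of this length, and GGGCGG in 7 of them and in 35.7% of all windows. A match describes these letters and is not a bound site.

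Among the activators, Myc, the founding member, was read by probe ILMN_2623526. Its values were 7.22, 6.72 and 7.17 on replicates 1 to 3 of adherent mouse 1, 7.19 on replicate 1 and 7.62 and 7.85 on arrays a and b of adherent mouse 2, and 6.23, 6.56 and 6.15 on spheroid replicates 1 to 3. Every spheroid array was below every adherent array, and the gap was narrow between spheroid replicate 2 and adherent mouse 1 replicate 2. Myc fell by 1.24 ± 0.20 (SE, limma, n = 3 arrays per culture) in spheroids against adherent mouse 2, a 2.36-fold difference with an adjusted p of 0.000162. Against adherent mouse 1, the same animal, the difference was -0.72 ± 0.20 (adjusted p in limma 0.0087). Against the adherent average it was -0.98 ± 0.18 (adjusted p 0.000302 in limma), 1.97-fold and so just short of a call. Without adherent mouse 1 replicate 2, adherent mouse 2 replicate 1 or spheroid replicate 2 this last difference was -1.06, -1.07 and -1.10 and passed the 2-fold limit. The adherent cultures, at means of 7.04 ± 0.27 and 7.55 ± 0.34 (SD, n = 3 each), differed by 0.52 with an adjusted p of 0.135 in limma, which became 0.0039 without adherent mouse 2 replicate 1. The pool arrays read 6.96, 7.31 and 6.44 in adherent mouse 1, adherent mouse 2 and spheroids, the same order as the means. Another Myc probe, ILMN_1231123, was undetected on all 9 arrays, between 4.14 and 4.46, and gives no level.

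Mycl, or L-Myc, a paralog with a narrower range of tissues, took a different course. It measured 8.24, 8.29 and 8.26 in adherent mouse 1, 7.54, 7.35 and 7.16 in adherent mouse 2 (replicate 1, array a, array b) and 8.20, 8.33 and 8.15 in spheroids. The spheroid values lay around those of adherent mouse 1, and all 3 arrays of adherent mouse 2 lay below both. The difference of adherent mouse 2 from adherent mouse 1 was -0.92 ± 0.13 (SE, limma, adjusted p 0.00068), which is 1.89-fold and ranked 134 from the lowest of 10112 genes in that comparison. Without adherent mouse 2 replicate 1 it was -1.01 and passed the 2-fold limit. The spheroid difference was 0.88 ± 0.13 from adherent mouse 2 (adjusted p 6.25e-05, limma) and -0.04 from adherent mouse 1, with a 95% confidence interval from -0.32 to 0.24. The value against the adherent average, 0.42, therefore joins unequal differences. It turned to -0.06 when arrays were scaled to a common median, a scaling that moved the median of all probes from -0.07 to -0.32. Under that scaling the difference from adherent mouse 1 was -0.40 and passed the adjusted p (0.0226, limma). That from adherent mouse 2 was 0.28 and did not (0.0907). Set against the median of all probes they were -0.15 and 0.69. Which spheroid difference of Mycl passed thus depended on the scaling, while the adherent cultures still differed by -0.69 (adjusted p 0.00671, limma). Mycn, the paralog of neural tissue, was undetected on all replicate arrays, at 4.15 to 4.63.

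Max, the shared partner without which neither Myc nor the Mxd proteins bind DNA well, measured 6.73, 6.48 and 6.40 in adherent mouse 1, 6.06, 6.48 and 6.58 in adherent mouse 2 and 7.0, 7.31 and 6.99 in spheroids. All spheroid arrays were above all adherent arrays. The difference from the adherent average was 0.64 ± 0.16 (SE, limma, adjusted p 0.00332), 1.56-fold, with 0.56 against adherent mouse 1 and 0.73 against adherent mouse 2. Under scaling to a common median it was 0.27 with an adjusted p of 0.289 in limma, and set against the median of all probes it was 0.59 under that scaling and 0.71 under the quantile one. The difference from adherent mouse 1 missed the adjusted p in limma without adherent mouse 1 replicate 2 (0.54, adjusted p 0.0616), adherent mouse 1 replicate 3 (0.50, 0.0744) or spheroid replicate 2 (0.46, 0.086). The adherent cultures differed by -0.16 (95% confidence interval -0.56 to 0.24).

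Mxd1, also called Mad1, is the antagonist that is known to take the place of Myc on Max as cells leave the cycle. Its brightest probe, ILMN_1232668, measured 5.27, 5.53 and 5.23 in adherent mouse 1, 5.33, 5.04 and 5.0 in adherent mouse 2 and 10.64, 10.60 and 10.89 in spheroids. Before correction the same probe gave 148 to 166 units on the adherent replicate arrays, where the mean background of all arrays was 124 to 143, and 1285 to 1751 units on the spheroid ones. No adherent array came near a spheroid array, and the pools read 5.34, 4.83 and 10.71 in adherent mouse 1, adherent mouse 2 and spheroids. Mxd1 rose by 5.48 ± 0.14 in spheroids against the adherent average (SE, limma, adjusted p 1.76e-12), by 5.36 against adherent mouse 1 and by 5.59 against adherent mouse 2. The adherent cultures differed by -0.22 (adjusted p 0.427, limma), and the other Mxd1 probes gave 0.45 and 0.13 there. The adherent signal was detected on all adherent replicate arrays but close to background, where the offset of the processing compresses a fold.

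The other Mxd1 probes pointed the same way in spheroids and differed in size. Probe ILMN_1224997 measured 4.36, 4.20 and 4.25 in adherent mouse 1, 4.68, 4.76 and 4.73 in adherent mouse 2 and 8.52, 8.30 and 7.71 in spheroids. It was not detected in adherent mouse 1, where only a bound can be given, and was at least 12.9-fold higher in spheroids (adjusted p 2.71e-09, limma). Against adherent mouse 2 it was 10.9-fold higher (adjusted p 1.08e-08, limma). For the bound, a dim array counts at no less than the faintest probe that was detected on it. Probe ILMN_2428206 was dim everywhere. It lay at 4.14 to 4.52 and was undetected on the adherent arrays, and it read 4.91, 4.75 and 5.03 in spheroids, which is at least 1.32-fold above the adherent average (adjusted p 0.00292, limma). It was tested through its spheroid arrays alone and was not called in any comparison. All 3 probes are assigned to the same RefSeq transcript, and where on it each one lies was not used here.

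**Figure D2:**
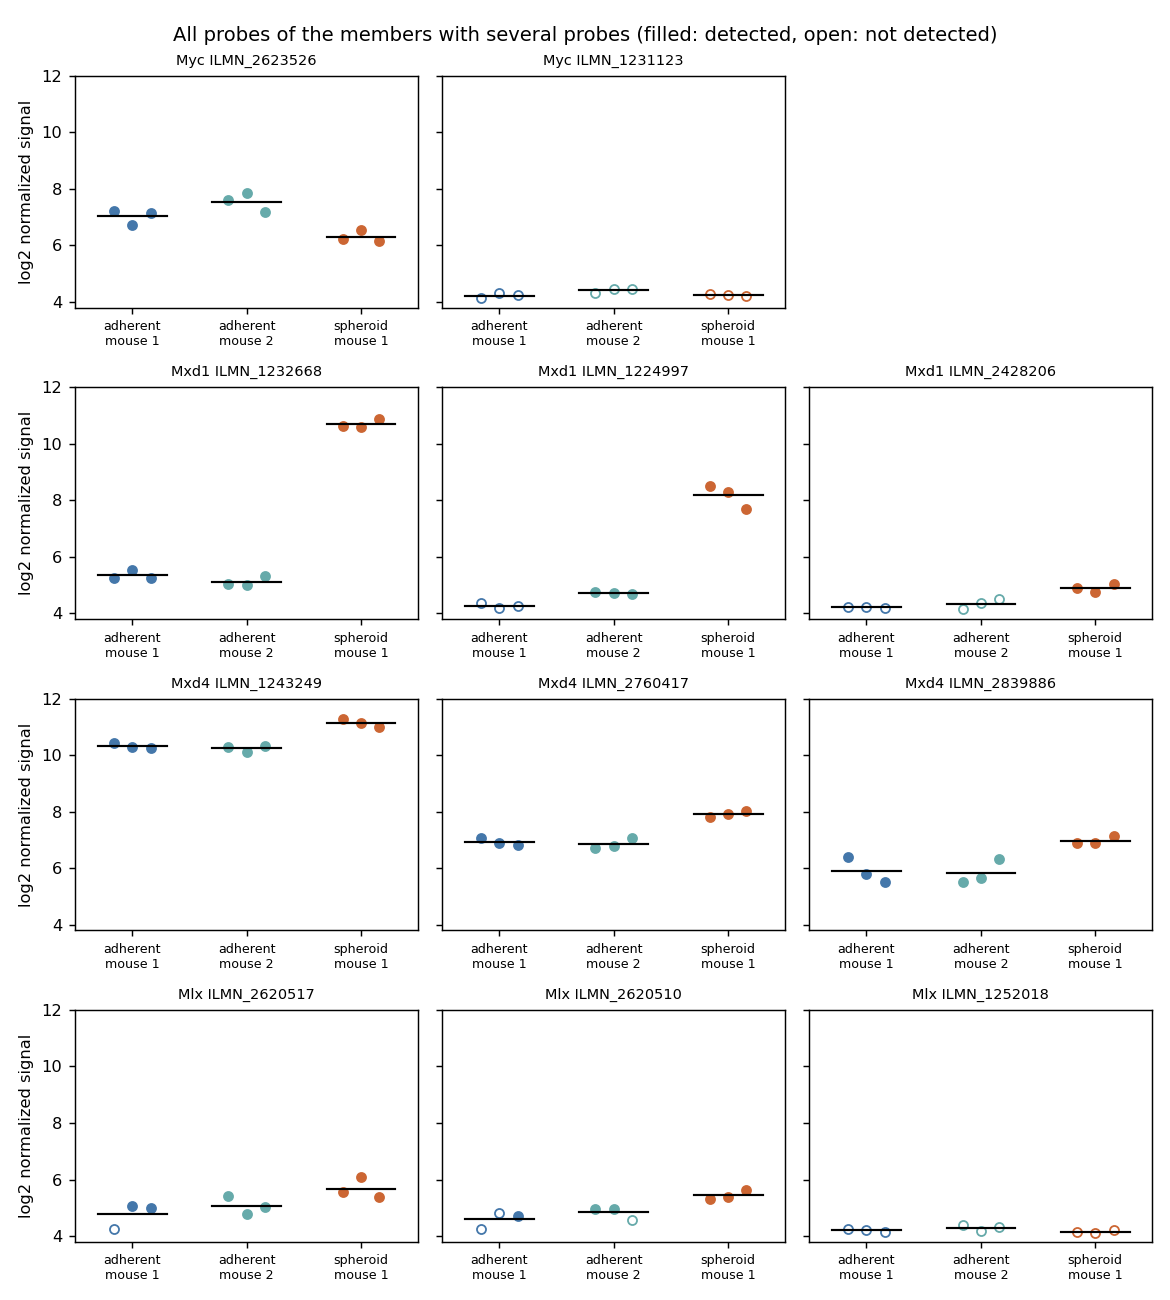
Log2 normalized signal of every probe of the 4 members that have more than 1, Myc, Mxd1, Mxd4 and Mlx, on the 9 replicate arrays by culture. Filled points are detected, open points are not, and lines are means. The Mxd1 probes are all highest in spheroids but reach 10.89, 8.52 and 5.03 there, and the 3 Mxd4 probes are all highest in spheroids.

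Mxd4, an Mxd protein found in many resting and differentiating tissues, measured 10.42, 10.29 and 10.24 in adherent mouse 1, 10.34, 10.29 and 10.11 in adherent mouse 2 and 11.27, 11.13 and 10.98 in spheroids at its brightest probe, ILMN_1243249. Spheroid and adherent arrays did not overlap, and the difference of 0.85 ± 0.09 (SE, limma, adjusted p 1.42e-06) was 1.80-fold. The probes ILMN_2760417 and ILMN_2839886 gave differences of 1.03 and 1.10 from the adherent average (adjusted p 1.25e-05 and 0.000682, limma). These are 2.04-fold and 2.15-fold, so that both were called where the brightest probe was not. Both are assigned to the same RefSeq transcript of Mxd4, while the brightest probe has none assigned. The adherent cultures differed by -0.07 on each of the 3 probes. Under scaling to a common median the spheroid difference of the brightest probe was 0.37 (adjusted p 0.00342, limma), and with cyclic loess it was 1.04 and called.

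The remaining antagonists were near background. Mxi1, also known as Mad2, was detected on 1 array of adherent mouse 1, on 2 of adherent mouse 2 and on all 3 of spheroids, with values of 4.52, 4.84 and 4.85, then 4.48, 4.93 and 4.63, then 4.92, 5.26 and 5.13. The ranges overlapped at adherent mouse 2 array a and spheroid replicate 1, and the difference from the adherent average, 0.40 ± 0.17, had an adjusted p of 0.0577 in limma. Its pools read 4.93, 4.54 and 4.80. Mxd3, an Mxd protein linked to S phase, was detected on 2 of 3 arrays in each adherent culture and on 0 of 3 in spheroids, at 4.44 to 5.29 in adherent cells against 4.14 to 4.55. Mnt, the broadly expressed antagonist, was detected only on arrays a and b of adherent mouse 2 among the replicate arrays, at 5.21 and 5.51, against 4.33 on the remaining array of that culture and 4.19 to 4.63 elsewhere. Mxd3 and Mnt were not tested, and their spheroid values were not distinguishable from background.

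Mlx has 3 probes. ILMN_2620517, which represents the gene, measured 4.25, 5.05 and 4.99 in adherent mouse 1, 5.04, 5.41 and 4.78 in adherent mouse 2 and 5.56, 6.10 and 5.38 in spheroids. Spheroid replicate 3 lay just under adherent mouse 2 array a, so the groups overlapped, and adherent mouse 1 replicate 1 was the lowest and undetected. The spheroid difference from the adherent average was 0.76 ± 0.23 (SE, limma, adjusted p 0.0118), with 0.92 against adherent mouse 1 (adjusted p 0.0101) and 0.60 against adherent mouse 2 (adjusted p 0.0703). Against adherent mouse 1 it became 1.06, 1.03 and 1.07, past the 2-fold limit, without adherent mouse 1 replicate 2, adherent mouse 1 replicate 3 or spheroid replicate 3. It missed the adjusted p in limma without adherent mouse 1 replicate 1 (0.66, adjusted p 0.0585) or spheroid replicate 2 (0.71, 0.0552), and the value against the adherent average missed it without spheroid replicate 2 (0.55, 0.0852). Probe ILMN_2620510, tested through its spheroid arrays alone, gave 0.72 from the adherent average, and ILMN_1252018 was undetected on all replicate arrays. The spheroid pool read 5.08 on the first of these probes, between 5.25 for the pool of adherent mouse 1 and 4.95 for that of adherent mouse 2. The Mlx difference was thus seen on the replicate arrays and not between the pools of the same RNA.

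**Figure D3:**
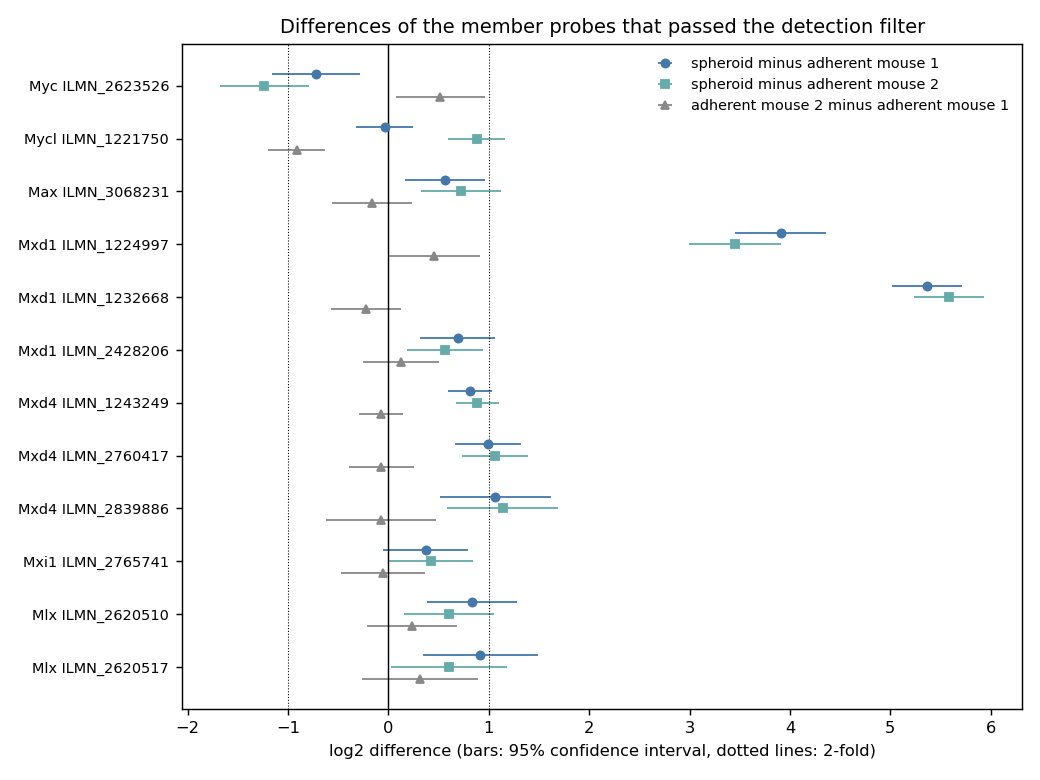
Log2 differences of the 12 tested probes of the 7 tested members, with 95% confidence intervals, for spheroids against each adherent culture and for the adherent cultures against each other. Dotted lines mark a 2-fold difference. A pair of Mxd1 probes stands apart at 3.45 to 5.59, Myc is the 1 tested member with both spheroid differences below 0 and both intervals clear of it, and Mycl differs between the adherent cultures by -0.92.

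Genes that work with the network were read from lists named for their roles, each gene by its brightest tested probe. Of the 28 tested textbook targets that Myc induces, 0 were called higher and 20 lower in spheroids against the adherent average in limma. At the adjusted p alone, which 58.7% of all probes passed in either direction, all 28 were lower. Of these, Eif4e and Nolc1 were undetected in spheroids and were tested through adherent arrays alone. Their median difference was -1.42, where the median of all tested probes was -0.07 and 23.9% of probes were called in either direction. Ncl, a nucleolar protein of ribosome assembly, fell by 2.67, Cad, which starts pyrimidine synthesis, by 2.60, and Srm, which makes spermidine, by 2.09. Mrto4, a ribosome assembly factor, fell by 2.03 and Shmt2, the mitochondrial serine hydroxymethyltransferase, by 2.01. Against adherent mouse 1 alone 19 of 28 were called lower with a median of -1.32, where 24.7% of all probes were called. Between the adherent cultures 0 of 28 were called in limma with a median of 0.02, where 2.11% of all probes were called. Of the called genes Cdc25a and Bop1 have another tested probe that was not called (-0.14 and -0.02). The lower proliferation markers given above moved with this list, and their part in it was not tested.

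Of the 12 tested textbook targets that Myc represses, 5 were called higher and 2 lower in spheroids, with a median of 0.73, where 23.9% of all probes were called. Of those called higher, Cebpa and Ndrg2 were tested through spheroid arrays alone, and Ndrg2, undetected on every adherent array, was at least 1.93-fold higher (adjusted p 8.72e-05, limma), a bound under the 2-fold limit. Ndrg1, a gene of differentiation and stress, rose by 3.38, the transcription factor Cebpa by 1.44, and Cdkn1b, which encodes the cyclin-dependent kinase inhibitor p27, by 1.40. In the other direction Thbs1, an inhibitor of vessel growth, fell by 3.15 and Cebpd, an acute-phase transcription factor, by 1.41. Cdkn1a (0.69) and Gadd45b (0.71) were not called at their brightest probes but were called higher on another probe (1.08 and 1.06). A further Cdkn1a probe gave 0.81, not called. Without background correction 2 of this list were called higher, with the authors' normalized values 2 and with an offset of 50 3, in place of 5.

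Among 10 tested cofactors of Myc, 0 were called higher and 4 lower in limma, with a median of -0.85, where 23.9% of all probes were called. These were the AAA-type ATPases Ruvbl2 (-2.65) and Ruvbl1 (-2.17), Wdr5 (-1.39), which helps Myc to chromatin, and the acetyltransferase Kat2a (-1.06). Scaling to a common median raised the count of lower calls to 7. Of the 5 tested corepressors that Mxd proteins recruit, 2 were called lower and 0 higher in limma, with a median of -0.87, against the same 23.9%. Sap30, a Sin3 subunit, fell by 1.13, and the deacetylase Hdac2 fell by 1.47 at its brightest probe while another probe gave 0.10.

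Genes that act on the stability of Myc proteins gave 1 call higher and 2 lower among 9 tested, with a median of -0.70, where 23.9% of all probes were called. Aurka, a mitotic kinase that also shields Mycn from degradation, fell by 3.58. The F-box protein Skp2 fell by 1.13. It was detected on 1 of 3 spheroid arrays and was tested through adherent arrays alone. Fbxo32, another F-box protein, rose by 1.24 against the adherent average but stood at 0.73, under 2-fold, against adherent mouse 2. The others were not called. The deubiquitinase Usp36 gave -0.97, the ubiquitin ligase Trim32 -0.83 and Fbxw7, the F-box protein that recognizes phosphorylated Myc, -0.70 with 0.13 on another probe. The ligase Huwe1 gave -0.35, the deubiquitinase Usp28 -0.27, and Gsk3b, which phosphorylates the Myc degron, 0.20. Further tested probes, not called, gave -0.51 for Usp36, -0.21 for Trim32, 0.06 for Huwe1 and -0.06 for Gsk3b. For Fbxo32 they gave 0.78, not called, and 1.05, called.

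Beyond the Max branch, 0 of 3 genes were called in spheroids against the adherent average. Mga, a large Max partner, gave -0.12, MondoA, encoded by Mlxip, 0.47 (adjusted p 0.0429, limma) and ChREBP, encoded by Mlxipl, 0.60 (adjusted p 0.0437, limma). Neither Mlxip nor Mlxipl passed the adjusted p against both adherent cultures. Mlxip gave 0.58 against adherent mouse 1 (adjusted p 0.0343, limma) and 0.36 against adherent mouse 2 (0.172). Mlxipl gave 0.31 (0.362) and 0.89 (0.0141) in the same order. The tested Mlxip probe has no RefSeq transcript assigned, and the other probes of both genes did not pass detection. Both tested targets of MondoA and ChREBP were called higher, where 23.9% of all probes were called. Txnip, a thioredoxin-binding inhibitor of glucose uptake, rose by 4.70 with another probe at 4.77, and its relative Arrdc4 rose by 1.62.

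**Figure D4:**
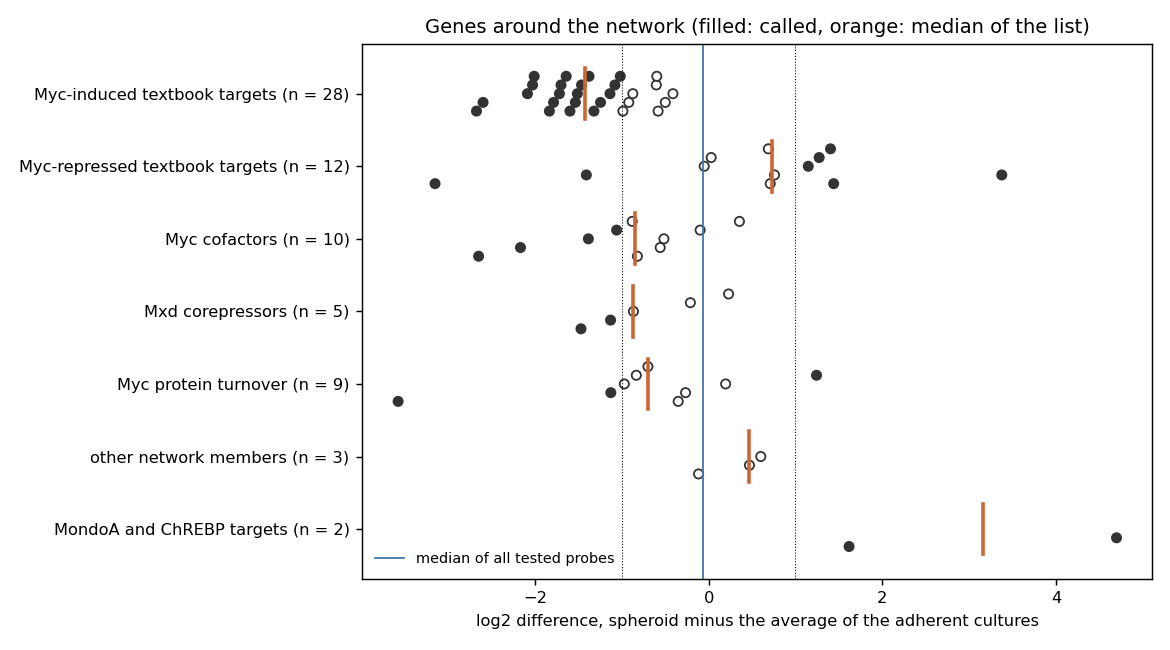
Log2 differences in spheroids against the adherent average of the genes around the network, 1 point per gene by its brightest tested probe, with filled points for called genes. Orange bars are list medians and the blue line is the median of all tested probes, -0.07. The median of the Myc-induced targets lies at -1.42 and that of the Myc-repressed targets at 0.73.

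The genes whose pattern over the 9 replicate arrays came nearest to that of Mxd1 and Myc, the members with the largest spheroid differences, were taken by the root mean square of the difference between log2 values, each gene centred on its own mean, among 10111 other genes. For Mxd1 they were Pllp (0.20), Bcas1 (0.21), Ly6m (0.22), Tmc7 (0.22) and Krtdap (0.22), the last a protein of differentiating keratinocytes. For Myc they were Ino80e (0.09), a subunit of the INO80 chromatin remodeler, the deadenylase Parn (0.11), the ubiquitin ligase Ube3a (0.15), the ribosome assembly factor Rsl24d1 (0.16) and the ribosomal oxygenase Riox2 (0.16). All 5 genes near Mxd1 had adherent means of 4.15 to 4.44, within the 4.14 to 4.46 of the undetected Myc probe. Their likeness to Mxd1 is therefore a step from near background to a high spheroid signal. For both members the likeness rests on 3 culture means and the noise of 9 arrays.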

How the data were processed

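The members and gene lists were chosen with earlier results of these data known. Per the labels' protocols, total RNA was extracted with a miRNeasy kit and turned into biotinylated cRNA with a MessageAmp kit. The authors deposited, per the file headers, the mean bead intensity of each probe on a linear scale with background included, beside its detection p-value on that array. They also deposited a table of normalized intensity, whose method is not given in the sources used here. Its column medians were 125 to 129, its columns kept the probe order of their own arrays, and how it was scaled or centred stays unknown. In the first table a pair of columns of adherent mouse 2 carry one name, so the header gives these arrays no replicate number and none was assigned from their values. By rank across probes array a was nearest to replicate 2 of the normalized table (0.99992) and array b to replicate 3 (0.99984).

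limma 3.58.1 in R 4.3.3 took the background of each array from its detection p-values, corrected it (neqc, offset 16) and quantile-normalized log2 values over 12 arrays. The 9 replicate arrays entered a linear model of the 3 culture means over all 18950 tested probes (lmFit, eBayes with an intensity trend), and p-values were adjusted over all of them by Benjamini-Hochberg. Pools stayed out of the fit. Of all probes, 34773 had 1 gene symbol in the platform annotation supplied with the data, 18 had several and 10344 had none here, and 34695 matched a current gene identifier. The text names every member, up to 5 called genes per list by size, all tested genes that act on Myc stability or belong to the wider network, and the 5 nearest patterns of a pair of members. Genes of the cell type markers are named as a check of the cultures. Precision is limited by the number of arrays and by signals close to background. Alternatives were other scalings, offsets, filters, weights, the authors' normalized values, single probes, a replicate block and leaving out each array.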

Additional observations from a re-analysis of the deposited data

Results flagged for a closer look

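Mycl differed between the adherent cultures by -0.92 on the log2 scale (adherent mouse 2 minus adherent mouse 1, adjusted p 0.00068 in limma), which is also the difference between its spheroid effects against each culture (0.88 against adherent mouse 2 and -0.04 against adherent mouse 1). It was singled out because the same contrast gave unequal results for the 2 cultures and the difference itself passed the adjusted p, in 3 of 3 arrays of adherent mouse 2. When arrays were scaled to a common median the adherent cultures differed by -0.69 (adjusted p 0.00671, limma). The spheroid effects were then 0.28 against adherent mouse 2 and -0.40 against adherent mouse 1. Each adherent culture came from 1 mouse, so mouse and culture cannot be told apart.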

How the results depend on the processing

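The Mxd1 call held under each alternative with a test in all 3 spheroid comparisons (log2 difference from the adherent average 3.52 to 5.59), except when read by its dimmest probe, and Myc was lower in spheroids under each of 22 alternatives (-1.32 to -0.48). In spheroids against the adherent average, members called were 2 in place of 1 with median scaling (Myc added), cyclic loess (Mxd4 added) and array weights (Myc added), and 1 to 2 when 1 array was left out. Members past the adjusted p alone were 3 in place of 6 with median scaling. Against adherent mouse 1, members called were 2 with cyclic loess and 1 to 2 with 1 array left out, and those past the adjusted p alone were 3 to 5 with 1 array left out. With median scaling Mycl (-0.40) took the place of Max among those past the adjusted p alone. Against adherent mouse 2, 1 member was called in place of 2 without background correction, with an offset of 50 and with the authors' normalized values (Myc at -0.63, -0.96 and -0.76), 3 were called with cyclic loess (Mxd4 added), and 3 passed the adjusted p alone with median scaling. Between the adherent cultures, members called were 0 to 1 and those past the adjusted p alone 1 to 2 with 1 array left out, and the latter were 2 with array weights. The cause was not tested.

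Signs turned for Mycl against the adherent average with median scaling (-0.0615) and against adherent mouse 1 with cyclic loess (0.0697) and with 1 array left out (-0.0913 to 0.0033). Between the adherent cultures they turned for Max (0.0472) and Mxd4 (0.15) with median scaling, for Mxd1 on its other probes (0.45 and 0.13) and for Mxi1 with array weights (0.14) and with 1 array left out (-0.1821 to 0.0417). None of these passed the adjusted p. Between the pool arrays, which allow no test, the sign turned for Mlx against the adherent average (-0.02) and adherent mouse 1 (-0.17), for Mxi1 against adherent mouse 1 (-0.14), and between the adherent cultures for Max (0.16) and Mlx (-0.30).

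Same-numbered replicates did not deviate together (correlations of deviations -0.27 to 0.09 over 9 pairs), so the numbers were not taken as pairs. With the replicate number as a block, on the authors' values, which carry all numbers, 1 member was called in each spheroid comparison and 0 between the adherent cultures. Probes called over the whole table for spheroids against the adherent average were 4538, of which 48.1% were higher, against 5365 (26.4% higher) with median scaling, 4195 (56.6%) with cyclic loess, 1892 without background correction, 3070 with an offset of 50, 2207 with the authors' values and 2684 with 1 probe per gene. Between the adherent cultures they were 399 (53.1% higher), against 499 (76.4%) with median scaling, 78 without background correction, 155 with an offset of 50, 97 with the authors' values, 249 with 1 probe per gene, 260 with detection on all 9 arrays and 656 without adherent mouse 2 replicate 1. Median scaling moved the higher share from 47.3% to 31.3% against adherent mouse 1 and from 47.8% to 22.1% against adherent mouse 2. Probes past the adjusted p alone between the adherent cultures were 1899, and 868 to 5596 with 1 array left out, 7168 with array weights and 1235 without a detection filter. Fold limits on dim probes depend on the offset, and 1 spheroid culture from 1 mouse limits all spheroid results.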
